A study of Homo sapiens with 36 samples.

Results

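Untreated HepG2-IGF1R-KO cells kept in normal medium were compared with each other: replicates 1 to 3 against replicates 4 to 6, which are 6 of the 36 libraries of the series. HepG2 is a human hepatoma line, and in these cells the gene of the IGF-1 receptor, IGF1R, was targeted. The pair of triplets was picked with their values known, because both held stromal transcripts and a low FN1 level while ANGPTL4, CPT1A, lipid genes and the mitochondrial share of counts differed. Everything measured between these 6 libraries is therefore a description without a test, and tests are given only for other libraries. The series as a whole had 4 groups of 9 libraries, harvested at 72 h: cells in normal medium without treatment, cells in normal medium stimulated with human insulin (3 nM, 18 h), and the same pair in an insulin-resistant medium applied for 72 h. That medium held glucose at 20 mM, insulin at 1 nM and a mix of fatty acids (oleic, linoleic and palmitic) at 0.5 mM. All groups shared the IGF1R-KO genotype, and the labels do not say whether the line was 1 clone. The labels call the 9 libraries of a group biological replicates and do not say which came from separate cultures, so p-values measure only the spread between these samples, which may be partly technical.

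Replicates 1 and 3 carried the batch label 22 April, replicate 2 that of 11 April, and replicates 4 to 6 that of 24 May. Batch and triplet therefore cannot be told apart in these 6 libraries, and no value within 1 batch can be given for them. Replicates 4 to 6 were also sequenced more deeply, with totals of 104161513 to 116763869 counts against 59933979 to 64922491 in replicates 1 to 3. The third untreated triplet, replicates 7 to 9, had 63739797 to 67746932 counts. IGF1R, the targeted gene, was transcribed at 99.3, 99.4 and 101 CPM (counts-per-million of the library total) in replicates 1 to 3. It stood at 113, 118 and 90.3 CPM in replicates 4 to 6, and the ranges overlapped. The labels do not say what the targeting changed in the gene, so this level does not check the knockout. LEAP2, which the series title names, stood at 1.76, 1.69 and 2.14 CPM against 1.90, 2.12 and 1.98 CPM, and its ranges overlapped as well.

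ANGPTL4 encodes a secreted protein that inhibits lipoprotein lipase, the enzyme that frees fatty acids from circulating triglyceride, and it is a classic target of the fatty acid sensing PPAR receptors. Liver and adipose tissue make it, and so do fibroblasts and other cells. CPT1A encodes the enzyme that commits long-chain fatty acids to mitochondrial oxidation and is another PPAR target in liver. HepG2 cells make albumin, apolipoproteins and other liver proteins, and fibrillar collagens are products of fibroblasts and related stromal cells.

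The promoters of 3 leading genes are shown because these genes moved together or apart between the triplets: ANGPTL4 and IL11, both lower in replicates 4 to 6, and CPA4, higher there. Each is the 250 bases before the annotated start, written 5′ to 3′ on the gene's strand, from RefSeq on GRCh38.p14. ANGPTL4 is chr19:8363905-8364154 on the plus strand, IL11 is chr19:55370464-55370713 on the minus strand and CPA4 is chr7:130292911-130293160 on the plus strand. Capitals mark matches to any motif searched on both strands: the nuclear receptor hexamer AGGTCA, the direct repeat of that hexamer bound by PPAR, the sterol regulatory element, the E-box CACGTG, the CCAAT box CCAAT, the AP-1 site TGAGTCA and the TEAD site GGAATG.
ANGPTL4: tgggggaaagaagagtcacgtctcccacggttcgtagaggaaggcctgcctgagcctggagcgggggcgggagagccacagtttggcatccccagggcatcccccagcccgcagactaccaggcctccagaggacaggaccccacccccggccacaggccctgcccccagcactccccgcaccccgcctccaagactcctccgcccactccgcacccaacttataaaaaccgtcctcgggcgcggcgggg
IL11: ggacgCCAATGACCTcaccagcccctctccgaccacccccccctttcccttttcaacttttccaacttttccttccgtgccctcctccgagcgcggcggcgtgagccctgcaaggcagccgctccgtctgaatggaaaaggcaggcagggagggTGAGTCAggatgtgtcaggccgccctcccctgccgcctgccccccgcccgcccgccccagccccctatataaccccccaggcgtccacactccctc
CPA4: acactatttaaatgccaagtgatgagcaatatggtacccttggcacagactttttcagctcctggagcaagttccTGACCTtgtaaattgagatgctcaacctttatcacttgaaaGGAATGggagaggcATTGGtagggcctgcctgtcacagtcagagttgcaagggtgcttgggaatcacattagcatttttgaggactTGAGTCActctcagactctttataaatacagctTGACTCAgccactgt
The ANGPTL4 window held none of these letters. The IL11 window held a hexamer that overlapped a CCAAT box, and an AP-1 site. The CPA4 window held 2 AP-1 sites, a TEAD site, a CCAAT box and a hexamer. Among 35116 promoters of that length, 12.1% held the hexamer, 0.0171% the direct repeat, 0.0342% the sterol element, 6.34% the E-box, 32.0% the CCAAT box, 4.2% the AP-1 site and 11.9% the TEAD site. Of the 12 genes lowest in replicates 4 to 6 (named below), 10 had a promoter entry; the hexamer was in 3, the CCAAT box in 6, and the E-box, AP-1 and TEAD sites in 1 each. Of the 12 highest genes, 9 had an entry; the hexamer was in 1, the CCAAT box in 2, the AP-1 site in 1 and the TEAD site in 3. The direct repeat and the sterol element were in none of these windows. Only exact matches within the 250 bases were searched, so sites elsewhere in or near a gene were not examined. HAS2, PTGIS, TMEM119 and SAMD12 were among those with no entry.

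ANGPTL4 was 28.5-fold higher in replicates 1 to 3 than in replicates 4 to 6. It stood at 20.2, 23.1 and 21.5 CPM in replicates 1 to 3 and at 0.591, 0.912 and 0.772 CPM in replicates 4 to 6, a mean of 21.6 ± 1.45 against 0.758 ± 0.161 CPM (SD, n = 3 each). All 3 libraries of the first triplet lay far above all 3 of the second. The fitted log2 fold change, replicates 4 to 6 minus 1 to 3 after TMM scaling of the library totals, was -4.95 ± 0.14 (SE). Replicates 7 to 9 stood at 1.15, 1.18 and 1.03 CPM, near replicates 4 to 6. The high level was that of replicates 1 to 3, and it recurred only in the insulin-stimulated replicates 1 to 3 in normal medium, at 26.7, 12.9 and 26.0 CPM. The other 30 libraries ranged from 0.237 to 1.41 CPM.

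CPT1A differed by far less. Its level was 74.9, 77.6 and 75.4 CPM in replicates 1 to 3 against 57.6, 65.0 and 57.1 CPM in replicates 4 to 6, and the log2 fold change was -0.46 ± 0.07. The ranges did not overlap. Replicates 7 to 9 were lower still, at 46.2 to 47.3 CPM. PDK4, another PPAR target and an inhibitor of glucose oxidation, stood at 0.284 to 0.417 CPM against 0.278 to 0.351 CPM, with overlapping ranges.

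**Figure D1:**
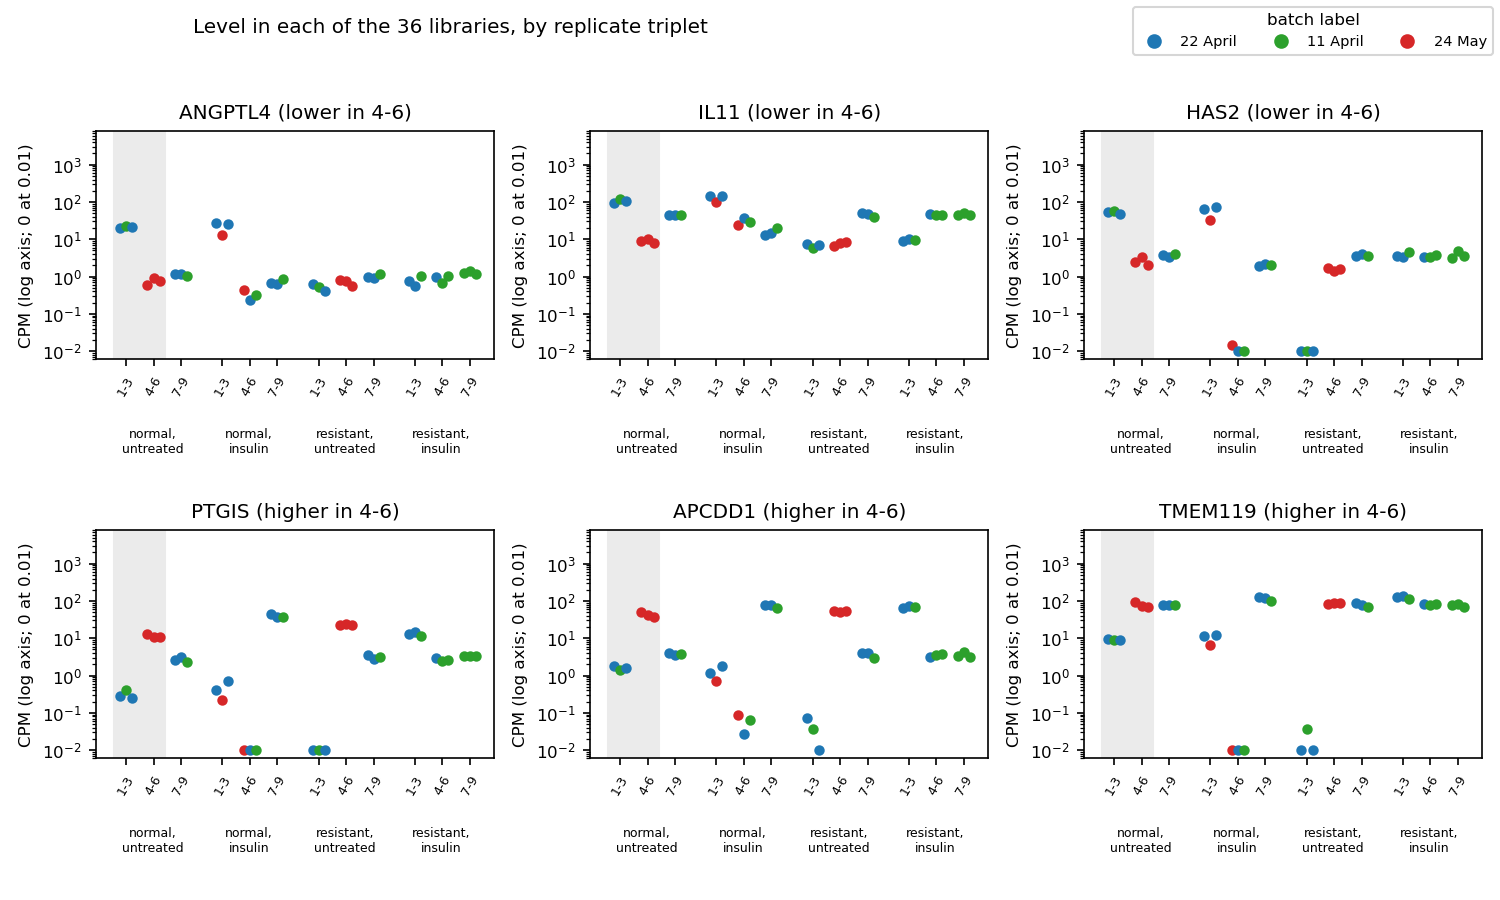
CPM on a log axis (values under 0.01 drawn at 0.01) of 3 genes low and 3 genes high in untreated replicates 4 to 6, for each of the 36 libraries, grouped by replicate triplet within medium and treatment and coloured by batch label; shading marks the 6 libraries compared. ANGPTL4, IL11 and HAS2 are high in the untreated and insulin-stimulated replicates 1 to 3 in normal medium, and PTGIS and APCDD1 in 4 other triplets.

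Across the transcriptome, 17974 genes were measured above a low count filter in the 6 libraries. A gene was counted as called where the quasi-likelihood test of edgeR gave a Benjamini-Hochberg adjusted p under 0.05; since the contrast was chosen on these values, this rule only counts genes. By it 5604 genes (31.2%) were called, 2413 higher (13.4%) and 3191 lower (17.8%) in replicates 4 to 6. The ranges of the triplets did not overlap for 9249 genes (51.5%). The split depended on scaling: 464 were higher and 5662 lower after scaling to the hepatocyte identity list, which moved the median log2 fold change of all genes from 0.03 to -0.26. It was 3573 higher and 2745 lower when all 36 libraries were fitted together. Without replicate 2, the only library of 11 April, 3730 genes were called. The median gene at 5 CPM or more varied by 5.38% (coefficient of variation) within replicates 1 to 3, by 7.96% within 4 to 6 and by 4.31% within 7 to 9.

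The genes named first are the 12 lowest and the 12 highest by log2 fold change among called genes with a symbol, a mean of at least 5 CPM and ranges that did not overlap, of which there were 2125 lower and 1687 higher. The values that chose them are given as description. The lowest was ANGPTL4, and the 12 ended with P3H2 at -3.34, just inside, before COL5A3 at -3.31, just outside. The highest was PTGIS, and its 12 ended with SEMA3D at 2.14, before SLC16A7 at 2.03.

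The 12 lowest genes included the secreted proteins ANGPTL4, IL11 and ESM1. IL11, a cytokine of the IL-6 family, stood at 96.4, 122 and 108 CPM against 9.22, 10.1 and 7.99 CPM (-3.69 ± 0.11), with replicates 7 to 9 between them, at 43.6 to 45.4 CPM. ESM1, a secreted proteoglycan, stood at 61.1, 70.1 and 59.2 CPM against 4.27, 5.02 and 3.44 CPM (-4.02 ± 0.13). For ESM1 replicates 7 to 9 were the lowest triplet, at 1.59 to 2.58 CPM.

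Receptors and surface proteins made up another group of the lowest genes. EPHB1, a receptor tyrosine kinase for ephrins, stood at 10.4, 9.86 and 9.23 CPM against 0.497, 0.394 and 0.333 CPM (-4.70 ± 0.16). NPR3, the clearance receptor of natriuretic peptides, stood at 92.1, 66.1 and 54.0 CPM against 4.71, 3.96 and 3.69 CPM (-4.22 ± 0.22), and replicates 7 to 9, at 79.8 to 86.3 CPM, stood with replicates 1 to 3. For this gene it was replicates 4 to 6 that stood apart. CD274, which encodes the immune checkpoint ligand PD-L1, stood at 19.0, 21.2 and 18.9 CPM against 2.42, 2.24 and 1.59 CPM (-3.36 ± 0.14). The adhesion protein OPCML (-3.36 ± 0.13) and the potassium channel subunit KCNQ5 (-3.48 ± 0.12) belonged to this group as well. Among enzymes, HAS2, which makes the matrix polysaccharide hyaluronan, stood at 54.8, 56.3 and 48.8 CPM against 2.42, 3.28 and 2.07 CPM (-4.48 ± 0.14). P3H2, which hydroxylates proline in collagen, had a log2 fold change of -3.34 ± 0.12. KRTAP2-3 (-3.71 ± 0.16) belongs to a multigene family of keratin-associated proteins, so its reads may be split with near copies.

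The 12 highest genes led with PTGIS, the synthase of prostacyclin. It stood at 0.277, 0.410 and 0.250 CPM in replicates 1 to 3 and at 12.98, 10.9 and 10.9 CPM in replicates 4 to 6 (5.09 ± 0.18), with replicates 7 to 9 between them at 2.35 to 3.06 CPM. APCDD1, a membrane inhibitor of Wnt signalling, stood at 1.77, 1.42 and 1.62 CPM against 50.8, 42.1 and 38.1 CPM (4.65 ± 0.14). VSIR, an immune checkpoint protein, stood at 4.81, 4.65 and 3.79 CPM against 63.4, 46.4 and 45.6 CPM (3.44 ± 0.15). Replicates 7 to 9 were at 3.48 to 3.96 CPM for APCDD1, near replicates 1 to 3, and at 24.6 to 26.4 CPM for VSIR, between the triplets.

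Among the rest of the highest genes were CPA4, a carboxypeptidase (3.01 ± 0.19), and PDE5A, the phosphodiesterase that breaks down cyclic GMP (2.19 ± 0.17). SEMA3D, a secreted semaphorin, had 2.14 ± 0.14, and IFIT1, an interferon-induced protein, stood at 2.71, 3.09 and 3.62 CPM against 24.3, 19.3 and 16.6 CPM (2.56 ± 0.16). TMEM119, a membrane protein best known from microglia and bone-forming cells, stood at 9.77, 8.95 and 9.06 CPM against 93.1, 74.8 and 69.2 CPM (2.98 ± 0.12), and replicates 7 to 9 stood with replicates 4 to 6 at 79.2 to 80.2 CPM. The others were MGARP (2.69 ± 0.19), SAMD12 (2.52 ± 0.22), DENND2A (2.22 ± 0.14) and RIPOR2 (2.21 ± 0.12).

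Both sets of leading genes were largely transcripts that collagen-free libraries lacked. In 6 libraries of the series, the insulin-stimulated replicates 4 to 6 in normal medium and the untreated replicates 1 to 3 in insulin-resistant medium, COL1A2 stood at 0 to 0.0263 CPM, and in the other 30 at 6808 to 17160 CPM. Of the 12 lowest genes, 10 stayed under 1 CPM in all 6 collagen-free libraries, IL11 being among the exceptions. So did 9 of the 12 highest, the exceptions being VSIR, IFIT1 and PDE5A. ANGPTL4 stood at 0.237 to 0.637 CPM there. Among all genes at a mean of 5 CPM or more, 5.0% (575 of 11505) stayed under 1 CPM in those 6 libraries. The share was 49.7% (162 of 326) among called genes lower by at least 2-fold and 56.8% (42 of 74) among those higher by at least 2-fold. Among those lower and higher by at least 4-fold it was 75.0% (51 of 68) and 73.3% (11 of 15). In bulk RNA, fewer cells of a type and less RNA per cell cannot be told apart.

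**Figure D2:**
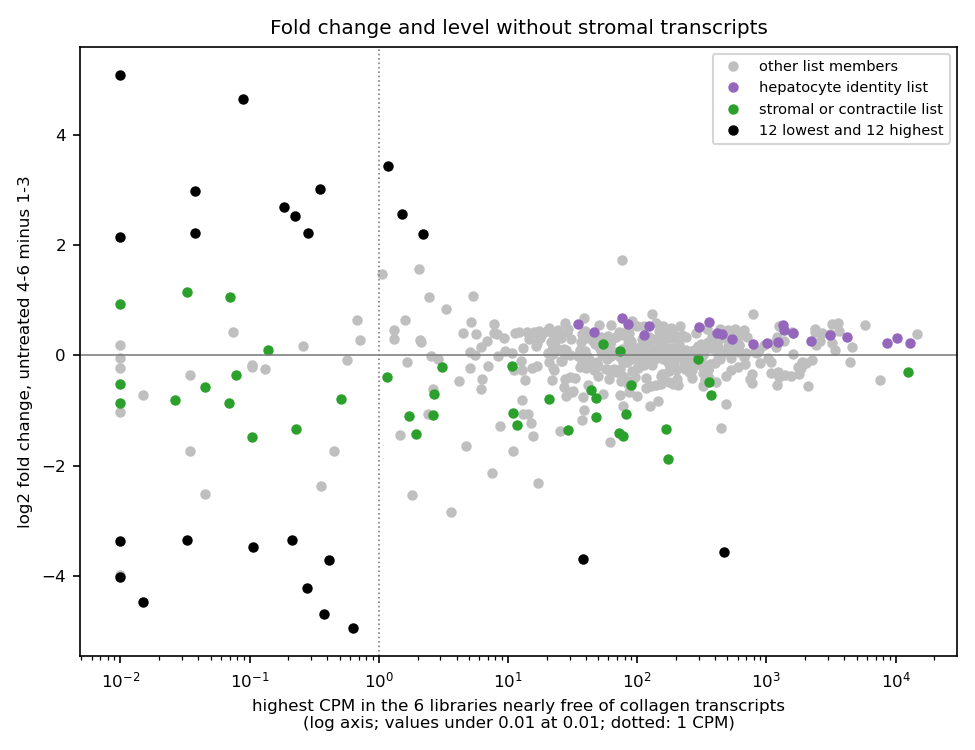
Log2 fold change of untreated replicates 4 to 6 minus 1 to 3 (vertical axis) against the highest CPM in the 6 collagen-free libraries (horizontal log axis) for the genes of the lists and the leading genes at a mean of 1 CPM or more. The leading genes lie mostly left of the dotted line at 1 CPM, and the hepatocyte identity genes lie at high levels between 0.2 and 0.7 on the vertical axis.

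Stromal markers were present in both triplets, though the labels name a hepatoma line. The 24 stromal markers took 5.02 to 5.63% of counts in replicates 1 to 3, 2.83 to 3.41% in replicates 4 to 6 and 7.36 to 7.81% in replicates 7 to 9. Replicates 4 to 6 had the lowest share of the 3 untreated triplets, and the collagen-free libraries had 0.0467 to 0.0569%. Of the 24 markers, 17 were lower and 3 higher in replicates 4 to 6, with a median log2 fold change of -0.66. The shares called over all genes were 17.8% lower and 13.4% higher. COL1A1, a fibrillar collagen chain, had -1.10 ± 0.12, and the collagen chain COL5A1 -1.49 ± 0.10. FN1, fibronectin, was not called, at -0.30 ± 0.12. DCN, LUM and PDGFRA were the 3 higher markers: the matrix proteoglycan decorin (DCN) stood at 62.5 ± 6.03 against 129 ± 19.6 CPM (SD, n = 3 each). Lumican (LUM) stood at 159.8 ± 17.3 against 359 ± 69.3 CPM, and the growth factor receptor PDGFRA at 32.2 ± 3.66 against 77.4 ± 4.59 CPM. The mean stromal share was 5.32% in replicates 1 to 3 and 3.05% in replicates 4 to 6, and its part in the difference of ANGPTL4 and other genes was not tested.

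Genes of the contractile apparatus and targets of TGF-beta were mostly lower in replicates 4 to 6, with a median log2 fold change of -0.83. Of 18, 15 were called lower and 0 higher (16 and 0 by DESeq2, and 16 and 0 at an unadjusted p under 0.05). Among all genes tested, 17.8% were called lower and 13.4% higher. TPM1, a tropomyosin of actin filaments, stood at 1101, 1218 and 1032 CPM against 376.2, 322.3 and 281.1 CPM (-1.89 ± 0.11). TAGLN, transgelin of smooth muscle type cells, stood at 1049, 1211 and 1057 CPM against 512.1, 401.0 and 382.8 CPM (-1.47 ± 0.12). CCN2, a matrix protein and YAP and TGF-beta target, had -1.33 ± 0.09. Replicates 7 to 9 were the highest untreated triplet for TPM1 (2017 to 2051 CPM) and TAGLN (1710 to 1814 CPM).

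Hepatocyte identity genes went the other way. Their 23 members took 2.42 to 2.81% of counts in replicates 1 to 3, 3.22 to 3.77% in replicates 4 to 6 and 2.18 to 2.54% in replicates 7 to 9. Of them, 12 were called higher and 0 lower (15 and 0 by DESeq2, and 15 and 0 at an unadjusted p under 0.05), with a median of 0.39. Among all genes tested, 13.4% were called higher and 17.8% lower. FOXA2, a liver transcription factor, stood at 33.0, 32.2 and 35.2 CPM against 49.4, 61.7 and 62.2 CPM (0.67 ± 0.10). The asialoglycoprotein receptor subunit ASGR1 had 0.61 ± 0.13. ALB, albumin, had 0.22 ± 0.12 and was not called. After scaling to this list the median of its members was 0.11, with 2 higher and 0 lower (3 and 0 at an unadjusted p under 0.05). That scaling sets the summed counts of the list equal between libraries, so its members are held near no change and the loss of calls is no result.

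**Figure D3:**
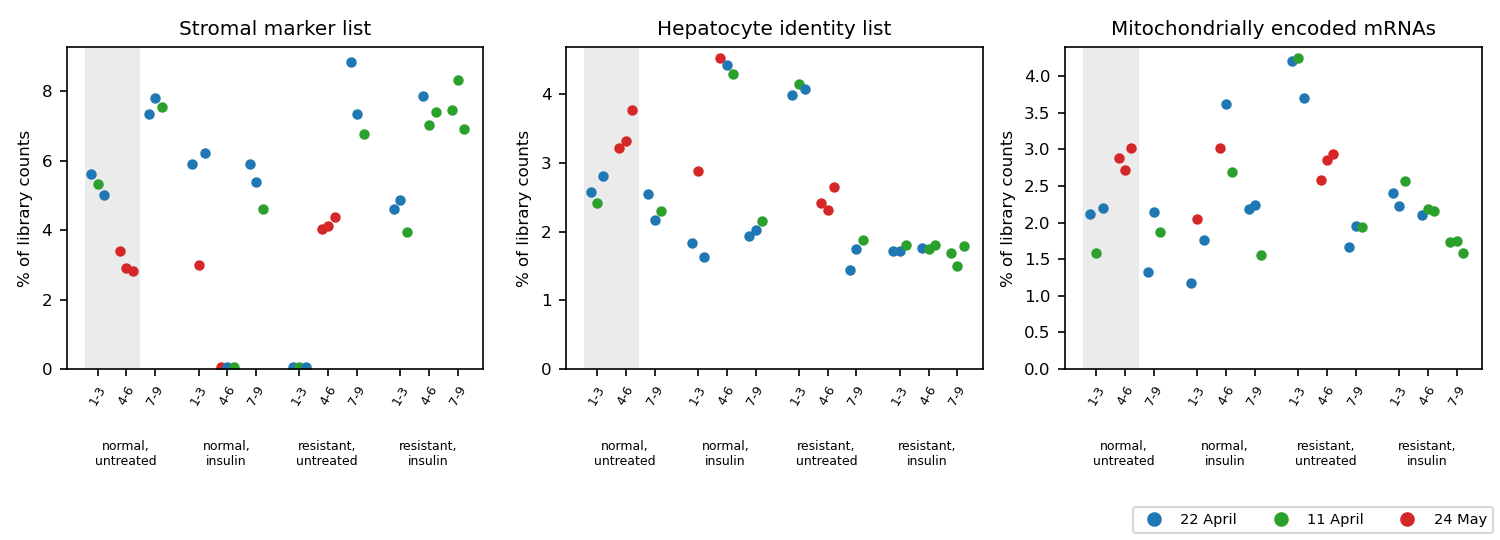
Share of library counts (percent, linear axis from 0) taken by the stromal marker list, the hepatocyte identity list and the mitochondrially encoded mRNAs in each of the 36 libraries, by triplet and batch label; shading marks the 6 libraries compared. Untreated replicates 4 to 6 have a lower stromal share, 2.83 to 3.41%, and higher hepatocyte and mitochondrial shares than replicates 1 to 3.

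The mitochondrially encoded mRNAs took 2.11, 1.58 and 2.20% of counts in replicates 1 to 3 and 2.89, 2.71 and 3.02% in replicates 4 to 6. Their means were 1.96 ± 0.335% and 2.87 ± 0.153% (SD, n = 3 each), and the ranges did not overlap. Replicates 7 to 9 had 1.33, 2.14 and 1.88%, which overlapped replicates 1 to 3. Of 13 such mRNAs, 8 were called higher and 0 lower (10 and 0 by DESeq2, and 11 and 0 at an unadjusted p under 0.05), with a median of 0.43. The shares called over all genes were 13.4% higher and 17.8% lower. MT-ND1, a subunit of respiratory complex I, stood at 1456, 1077 and 1646 CPM against 2169, 2147 and 2493 CPM (0.59 ± 0.15). MT-CO1, of complex IV, was not called at 0.39 ± 0.14. Scaled to the hepatocyte list the median was 0.16, and all 8 calls were lost (0 called by edgeR, and 2 higher and 0 lower at an unadjusted p under 0.05). That scaling left 464 of all 17974 genes higher and 5662 lower, with a median of -0.26, so higher calls were few in general. The 30 nuclear genes of the respiratory chain had a median of 0.01, with 0 called by edgeR or DESeq2 and 0 higher and 2 lower at an unadjusted p under 0.05. The collagen-free libraries, with the highest hepatocyte shares (3.98 to 4.53%), also had high mitochondrial shares, 2.69 to 4.25%. How far the shares of stromal and hepatocyte transcripts bear on the mitochondrial share was not tested.

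Lists of lipid synthesis and transport had mostly higher calls in replicates 4 to 6 under TMM scaling, and nearly all of these were lost when scaled to the hepatocyte list. Of all 17974 genes, 13.4% were called higher and 17.8% lower under TMM scaling. Scaled to the hepatocyte list, 464 of them were higher and 5662 lower. Cholesterol synthesis genes had 8 higher and 0 lower of 25 (12 and 0 by DESeq2, and 17 and 0 at an unadjusted p under 0.05), with a median of 0.23. TM7SF2, a sterol reductase, had 0.63 ± 0.13, and LSS, lanosterol synthase, 0.47 ± 0.09. Of 16 fatty acid synthesis genes, 5 were higher and 1 lower (median 0.20), among them FASN, the fatty acid synthase, at 1266, 998.9 and 1257 CPM against 2032, 1890 and 1759 CPM (0.57 ± 0.11). SREBF1, the regulator of that pathway, had 0.49 ± 0.07, and SCD, the desaturase, 0.23 ± 0.10 without a call.

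LXR targets and bile acid genes had 6 higher and 1 lower of 13 (median 0.26), with NR0B2, the repressor SHP, at 0.54 ± 0.14. Apolipoproteins and assembly factors had 5 higher and 1 lower of 18 (median 0.33). The call of APOA1 (0.55 ± 0.17), the protein of high density lipoprotein, was lost without replicate 1, 2 or 3. Scaled to the hepatocyte list, the medians turned negative for cholesterol synthesis (-0.06), fatty acid synthesis (-0.08) and LXR targets (-0.03), and came to 0.05 for apolipoproteins, with -0.26 for all genes under that scaling. The calls became 1 higher and 2 lower for cholesterol synthesis, 0 and 2 for fatty acid synthesis, 0 and 1 for LXR targets and 0 and 1 for apolipoproteins by edgeR. At an unadjusted p under 0.05 they were 1 and 3, 2 and 3, 1 and 1, and 0 and 1. APOA1, APOA2, APOB and APOH of the apolipoprotein list also belong to the hepatocyte list. That scaling holds the hepatocyte list near no change, so a call lost among these genes is no result.

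The list of PPAR targets and fatty acid oxidation did not move as 1 group: 6 of 24 were higher and 5 lower, with a median of 0.12. Over all genes 13.4% were higher and 17.8% lower. Scaled to the hepatocyte list it was 0 higher and 7 lower, also at an unadjusted p under 0.05, with a median of -0.16. That scaling gave 464 higher and 5662 lower of all 17974 genes, with a median of -0.26, so the lower calls of this list lay near the share of all genes. Beside ANGPTL4 and CPT1A, the lower genes included PPARD, the PPAR-delta receptor, at 58.8, 52.9 and 53.7 CPM against 43.3, 39.8 and 36.6 CPM (-0.58 ± 0.08). SLC25A20, the carnitine carrier of mitochondria, had -0.45 ± 0.09. Lipid droplet genes were split too, 4 higher and 5 lower of 19 (median 0.07, or -0.21 scaled to the hepatocyte list). MGLL, the monoglyceride lipase, stood at 204.2, 202.7 and 196.6 CPM against 78.1, 66.2 and 53.3 CPM (-1.73 ± 0.12), and at 0 to 0.0346 CPM in the collagen-free libraries. ABHD5, the activator of triglyceride lipase, had -1.64 ± 0.10. PLIN2, the main lipid droplet coat protein of liver cells, stood at 96.5, 111 and 100.3 CPM against 81.3, 98.7 and 89.6 CPM (-0.31 ± 0.08), with overlapping ranges, and without replicate 2 its call was lost. DGAT1, which makes triglyceride, was higher (0.41 ± 0.11).

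**Figure D4:**
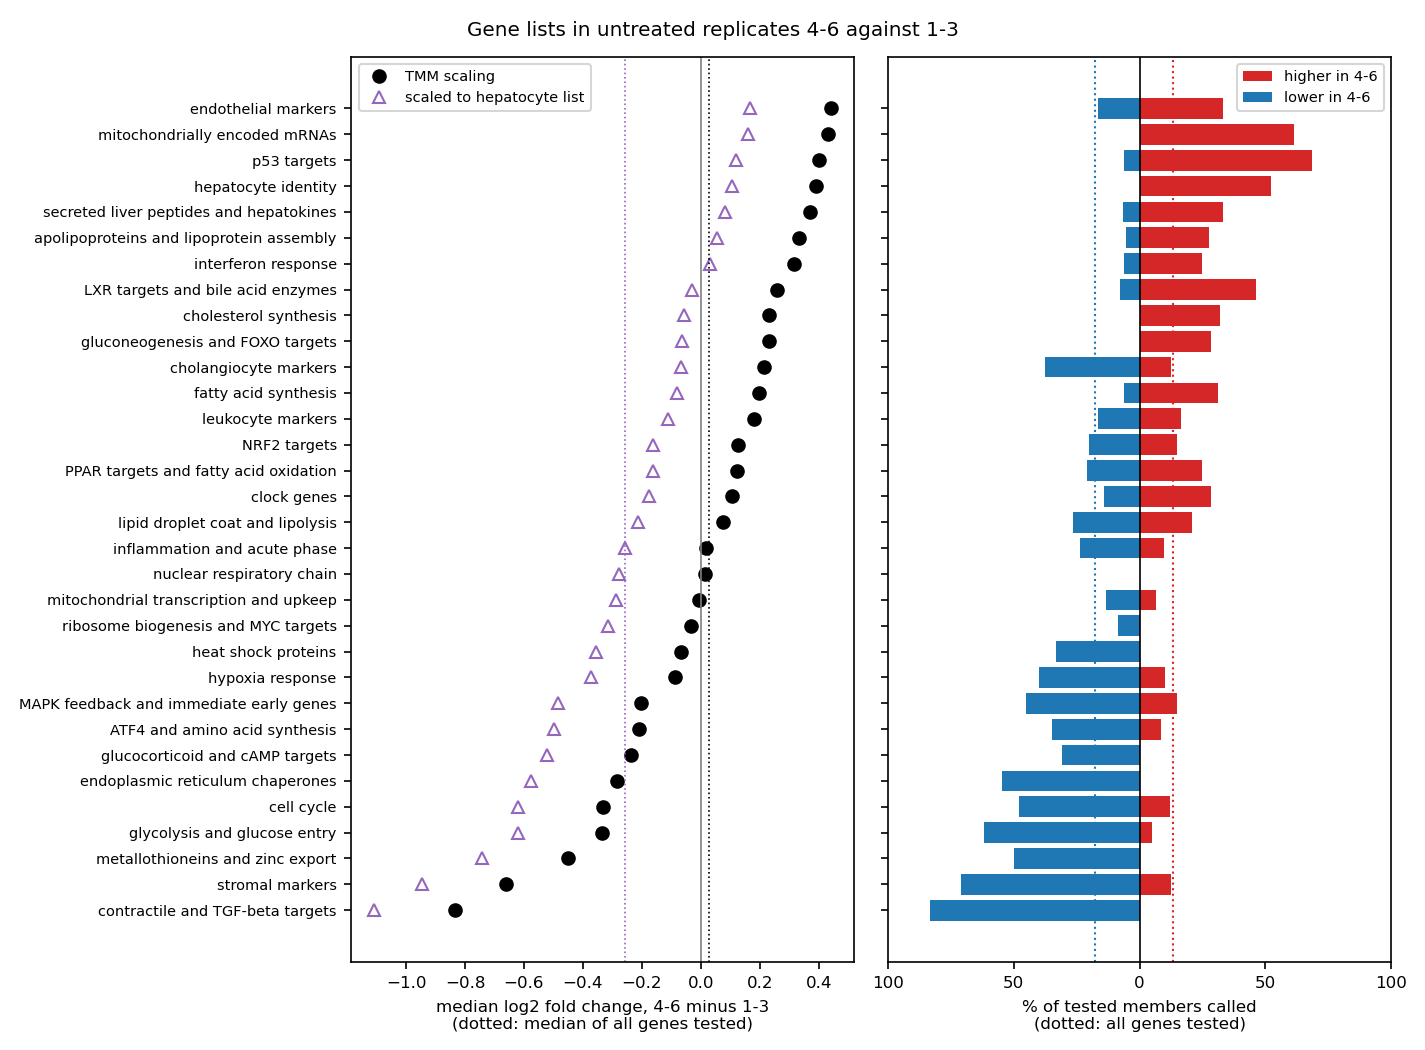
Left, the median log2 fold change of untreated replicates 4 to 6 minus 1 to 3 for each of 32 gene lists under TMM scaling (circles) and scaled to the hepatocyte identity list (triangles); right, the percent of tested members called higher or lower. Contractile and stromal lists lie lowest, at -0.83 and -0.66 under TMM scaling, and the dotted lines give the values of all genes tested.

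Lists of glucose use, stress responses and growth were then described, beside 13.4% called higher and 17.8% lower over all genes. In glycolysis 13 of 21 genes were lower and 1 higher (median -0.34), led by PFKP, a phosphofructokinase, at 157.0, 159.6 and 149.6 CPM against 67.6, 62.0 and 53.2 CPM (-1.47 ± 0.09). HK1, a hexokinase, had -1.06 ± 0.10 and stood at 0.972 to 2.39 CPM in the collagen-free libraries. Of 22 chaperones of the endoplasmic reticulum, 12 were lower and 0 higher (12 and 0 by DESeq2, and 13 and 0 at an unadjusted p under 0.05), among them calreticulin, CALR, at -0.56 ± 0.09. In the hypoxia list 8 of 20 were lower and 2 higher, and in the ATF4 list 8 of 23 and 2. CHAC1, a glutathione-degrading ATF4 target, stood at 47.3, 45.2 and 45.5 CPM against 11.0, 9.60 and 8.34 CPM (-2.37 ± 0.10). Metallothioneins, which bind zinc and copper, had 5 of 10 lower and 0 higher (1 higher and 5 lower by DESeq2 and at an unadjusted p under 0.05). MT2A stood at 486.0, 659.2 and 553.3 CPM against 139.0, 123.6 and 106.4 CPM (-2.32 ± 0.12); near-identical copies in this family may share reads.

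Cell cycle genes had 12 of 25 lower and 3 higher (median -0.33). CCNE2, a cyclin of the start of DNA synthesis, stood at 19.1, 21.2 and 17.6 CPM against 3.04, 3.06 and 2.67 CPM (-2.84 ± 0.11), and CCND1, cyclin D1, had -1.31 ± 0.08. MKI67, the proliferation marker, was not called, at -0.38 ± 0.14. Of the p53 targets 11 of 16 were higher and 1 lower (median 0.40), or 2 higher and 1 lower scaled to the hepatocyte list (median 0.12). Under that scaling 464 of all 17974 genes were higher and 5662 lower. FDXR, ferredoxin reductase, had 0.75 ± 0.11 and BTG2, an antiproliferative factor, 0.68 ± 0.08. Gluconeogenesis and FOXO targets had 6 of 21 higher and 0 lower (7 and 0 both by DESeq2 and at an unadjusted p under 0.05), or 0 higher and 1 lower scaled to the hepatocyte list (0 and 3 at an unadjusted p under 0.05). The enzymes G6PC1 (-0.08 ± 0.14) and PCK1 (0.16 ± 0.14) were not called. Interferon genes had 4 of 16 higher and 1 lower, with IFIT1, IFIT2 (1.48 ± 0.13) and IFIT3 (1.08 ± 0.11) leading. Immediate early genes were split: EGR1 stood at 17.6, 19.1 and 17.7 CPM against 81.5, 69.3 and 45.9 CPM (1.74 ± 0.18), and FOSL1, an AP-1 subunit, had -1.56 ± 0.10.

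Markers of other cell types were measured as well. The summed level of the endothelial list was 8.97 to 9.99 CPM in replicates 1 to 3 and 12.4 to 14.6 CPM in replicates 4 to 6. That of the leukocyte list was 798.5 to 950.3 against 928.8 to 1266 CPM, and this list holds genes such as CD68 that other cells also express. The cholangiocyte list summed to 1107 to 1200 against 1057 to 1287 CPM. In the collagen-free libraries the 3 sums were 24.5 to 31.1, 731.7 to 2449 and 1297 to 2056 CPM, and CDH5 had 15 to 88 counts. As sums, none of the 3 lists was thus confined to libraries with stromal transcripts, but members differed. PTPRC had 0 counts in all 6 collagen-free libraries. Of the genes measured, 3 of 6 endothelial, 4 of 6 leukocyte and 2 of 8 cholangiocyte genes stayed under 1 CPM in those libraries. So did 4240 of all 17974 genes. CDH5, a defining endothelial gene, stood at 0.968 ± 0.160 against 1.44 ± 0.129 CPM, and KDR had 1, 1 and 0 counts against 0 in each of replicates 4 to 6. PTPRC, the leukocyte marker CD45, stood at 0.125 ± 0.102 against 0.238 ± 0.0483 CPM. Of 6 endothelial genes measured, 2 were called higher and 1 lower. It was 1 and 1 of 6 leukocyte genes and 1 and 3 of 8 cholangiocyte genes, beside 13.4% higher and 17.8% lower over all genes. The part of these cell types in the differences was not tested.

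Other libraries, which the choice of the contrast did not use, were then tested. Within insulin-stimulated cells in normal medium, replicates 1 to 3 and 7 to 9 both held stromal transcripts. Replicates 7 to 9 were compared with 1 to 3 (3 against 3). This comparison was chosen after seeing the data, so its p-values are not an independent test of the difference between the untreated triplets. By edgeR, 2996 of 17232 genes changed (17.4%), of which 1594 were higher (9.25%) and 1402 lower (8.14%). All of the 12 genes lowest in untreated replicates 4 to 6 were lower and past the threshold in these insulin-stimulated replicates 7 to 9, and all of the 12 highest were higher and past it. ANGPTL4 stood at 26.7, 12.9 and 26.0 CPM in replicates 1 to 3 and at 0.684, 0.643 and 0.834 CPM in replicates 7 to 9. The log2 fold change was -4.97 ± 0.37 (edgeR, adjusted p = 0.000806), as large as between the untreated triplets. CD274 stood at 22.8, 11.0 and 25.5 CPM against 3.22, 2.86 and 3.48 CPM (-2.68 ± 0.34, edgeR adjusted p = 0.00352). PTGIS stood at 0.405, 0.223 and 0.714 CPM against 44.3, 36.6 and 37.3 CPM (6.49 ± 0.38, edgeR adjusted p = 0.000404). CPT1A fell by less, with -0.66 ± 0.15 (edgeR adjusted p = 0.0257).

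Over all 17041 genes tested in both comparisons, which share no library, 923 were lower in both. That was 29.2% of the 3157 lower in untreated replicates 4 to 6 and 65.9% of the 1401 lower in insulin-stimulated replicates 7 to 9. Another 779 were higher in both, 32.8% of 2374 and 50.4% of 1547. Opposite calls were made for 37 (1.17%) of the genes lower in untreated replicates 4 to 6 and 17 (0.716%) of those higher. Of genes lower by at least 4-fold between the untreated triplets, 133 of 182 (73.1%) were lower in the other pair and 0 were higher past the threshold, and of those higher by at least 4-fold, 79 of 87 (90.8%) were higher and 0 lower.

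The lists did not all follow. Hepatocyte identity genes had 0 of 23 called in the insulin-stimulated pair (0 by DESeq2 and 0 at an unadjusted p under 0.05), with a median of -0.138. Cholesterol synthesis genes likewise had 0 of 25 by all 3 counts, with a median of -0.007. In simulated counts this pair called only 10.4% of genes changed 1.5-fold, so changes of that size could be missed. Stromal markers had 7 higher and 0 lower of 24 (8 and 0 by DESeq2 and at an unadjusted p under 0.05), among them DCN, LUM and PDGFRA. All 25 cell cycle genes were lower, and 10 of 16 interferon genes were higher. In this pair 9.25% of all genes were called higher and 8.14% lower. The stromal share was 3.00 to 6.21% in replicates 1 to 3 and 4.61 to 5.91% in replicates 7 to 9, and the ranges overlapped. Between the libraries of 22 April alone, replicates 1 and 3 against 7 and 8, 7630 of 17394 genes were called (43.9%), and again all 12 and all 12 leading genes were called in the same directions, with ANGPTL4 at a log2 fold change of -5.38. The count over all batches moved from 1361, 1486 or 1673 without replicate 7, 8 or 1 to 5319 without replicate 2, the library of 24 May. Scaled to the hepatocyte list it was 534, with 389 higher and 145 lower.

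**Figure D5:**
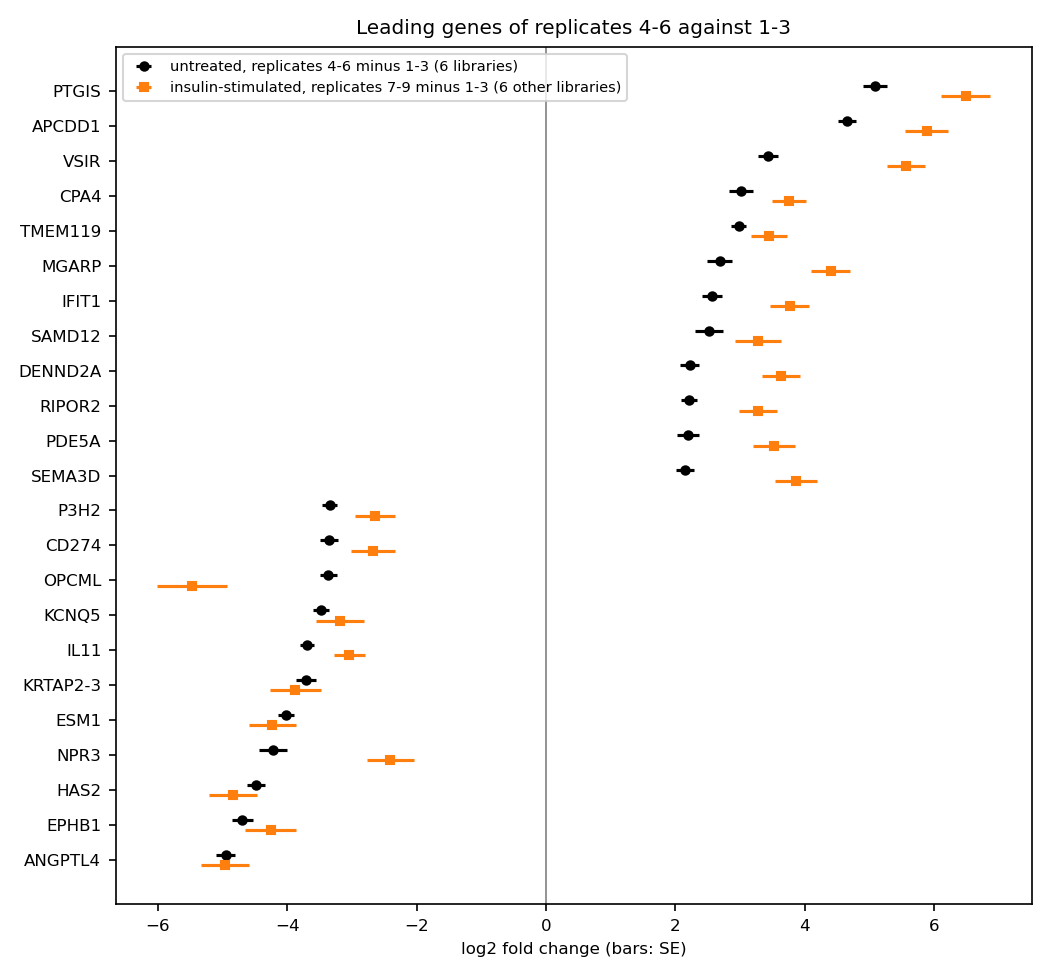
Log2 fold change (points, with SE as bars) of 11 of the 12 lowest and all 12 highest genes of untreated replicates 4 to 6 against 1 to 3, and of the same genes in insulin-stimulated replicates 7 to 9 against 1 to 3, in normal medium. Every gene plotted has the same sign in both comparisons, which share no library.

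The batch label was examined where a triplet held more than 1 batch. Among insulin-stimulated cells in normal medium, replicates 2 and 4 carried the 24 May label and the other 7 an April label, and the batches were compared with the triplet as a term. By edgeR, 686 of 18188 genes changed (3.77%), 160 higher (0.88%) and 526 lower (2.89%) in the 24 May libraries, or 4 and 795 scaled to the hepatocyte list. The count rests on few libraries: it was 1 or 2 without replicate 1, 2, 3 or 8, 363 without replicate 7, 1129 without replicate 5 and 3671 without replicate 4. Of the 12 genes lowest in untreated replicates 4 to 6, 4 were called lower and 0 higher, and of the 12 highest, 8 were called lower and 0 higher. By DESeq2 it was 7 and 9 lower, and at an unadjusted p under 0.05 11 and 12, with 0 higher in each case. For these genes the comparison rested mainly on 1 library of 24 May, replicate 2: at least 10 and 9 of them stayed under 1 CPM in replicates 4 to 6, and replicates 7 to 9 held no 24 May library. What batch adds to the untreated comparison was not tested by it. ANGPTL4 had -0.72 ± 0.30, which was not called. Stromal markers had 9 lower and 0 higher of 24 (10 and 0 by DESeq2, and 16 and 0 at an unadjusted p under 0.05), with a median of -0.81. Hepatocyte identity genes had 2 higher and 0 lower of 23 (9 and 0 by DESeq2, and 15 and 0 at an unadjusted p under 0.05), with a median of 0.45. Mitochondrially encoded mRNAs had a median of 0.11 with 0 of 13 called, by DESeq2 and at an unadjusted p under 0.05 too.

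Replicate 2 was the only 24 May library with stromal transcripts among insulin-stimulated cells in normal medium. It kept the pattern of its triplet at lower levels. Its ANGPTL4 level was 0.488 of the mean of replicates 1 and 3 from 22 April, and still above all 30 libraries outside the untreated and insulin-stimulated replicates 1 to 3 in normal medium. The ratio ran from 0.439 to 0.689 over the 12 lowest genes (median 0.47) and from 0.399 to 0.56 over the 12 highest (median 0.509). It had a median of 0.495 over the stromal markers and 1.75 over the hepatocyte identity genes. The stromal share of this library was 3.00%, against 5.92 and 6.21% in replicates 1 and 3, and its hepatocyte share was 2.89%, against 1.83 and 1.63%.

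Across the whole series the patterns recurred by triplet. For 10 of the 12 lowest genes, the untreated and insulin-stimulated replicates 1 to 3 in normal medium (6 libraries) all stood above the other 30 libraries, NPR3 being among the exceptions. For 11 of the 12 highest genes, 12 libraries stood above the other 24: the untreated replicates 4 to 6 and insulin-stimulated replicates 7 to 9 in normal medium, and the untreated replicates 4 to 6 and insulin-stimulated replicates 1 to 3 in insulin-resistant medium. TMEM119 was the exception. These 12 libraries spanned both media, both treatments and all 3 batch labels.

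The genes most like ANGPTL4 over the 9 insulin-stimulated libraries in normal medium were TGM2, a transglutaminase that crosslinks matrix proteins (Pearson r of log2 CPM 0.991), MAP2K1, a kinase of the MAPK cascade (0.988), MCOLN1, a lysosomal channel (0.987), SEMA7A, a membrane-bound semaphorin (0.987), and WDR76 (0.987), of 11274 genes compared. The 9 libraries fall into 3 triplets that differ in stromal share, so these values describe the triplets and have no test. Between the untreated triplets, all 5 were lower in replicates 4 to 6: TGM2 by -2.29 ± 0.08, SEMA7A by -2.48 ± 0.07, WDR76 by -1.65 ± 0.08, MCOLN1 by -0.83 ± 0.08 and MAP2K1 by -0.74 ± 0.07 on the log2 scale.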

How the data were processed

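Libraries were directional and made from poly-A RNA, per the labels' protocols, and whether counting used strand is not stated there. The values deposited by the authors are expected counts (estimated, unscaled, 1 value per Ensembl gene), of which 15.5% were not whole, and they were rounded before testing. The submitters' processing notes name STAR, Salmon and GRCh37, without versions, annotation or filters. Of 57771 genes, 51994 (90.0%) matched a GRCh38 symbol.

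Levels are CPM of the library total. Tests used edgeR 4.0.16 in R 4.3.3 (TMM, filterByExpr, robust quasi-likelihood F-test, Benjamini-Hochberg adjustment over all genes tested, threshold 0.05), and DESeq2 1.42.0 was an alternative. Each fit held only the libraries compared. At these totals counting error is small for most genes named; a count of 0 allows up to 3 counts. No pair within the compared triplets agreed within sampling noise (chi-square per gene 14.1 to 88.1). The members, the 32 lists (595 of 601 entries found) and the tests were chosen with earlier results of these data known. Named are the genes the choice cites, IGF1R, LEAP2, the 12 lowest and 12 highest genes, up to 4 called members per list with the largest change, key genes of the lists and the 5 genes most like ANGPTL4; some of these genes are not reported here, and DCN, LUM, PDGFRA, CCN2 and other markers were added after their values were seen.

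In simulated counts, 67, 67 and 66 genes, none of them at low counts, were changed 1.5-, 2- and 4-fold. For the untreated comparison (17974 genes), 55.2%, 80.6% and 97% of these were called, and 8.3% of calls were false. For the batch comparison (18188 genes) it was 35.8%, 64.2% and 92.4%, with 9.2% false. For the insulin-stimulated pair (17232 genes) it was 10.4%, 53.7% and 89.4%, with 6.4% false. Far more genes were called in the data, 5604 in the untreated comparison, so these false shares need not hold there. Replicates 1 to 3, 4 to 6 and 7 to 9 are called triplets. Alternatives were other scalings, filters, a minimum fold of 1.2, DESeq2, other sets of libraries and leaving out each library; the insulin-stimulated pair, its 22 April subset, mitochondrial shares without each library and the AP-1 and TEAD motifs were added after seeing the data.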

Additional observations from a re-analysis of the deposited data

Results flagged for a closer look

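INSR, the insulin receptor, stood at 86.0 CPM in untreated replicate 5 in normal medium, where the other 8 replicates ranged from 56.9 to 67.3 CPM. It lay farther from its group than Dixon's criterion allows for 9 libraries. Of 86 sets of 9 values examined (genes and shares in untreated and insulin-stimulated cells), 1 was picked out, and chance alone picks out about 1 in 20.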

How the results depend on the processing

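No paired analysis was possible because the triplets compared are of 1 group and share no replicate number. The 5604 called genes became 2580 at a minimum fold of 1.2 and 3730 to 5618 with each library left out. The batch comparison's 686 became 1736 with DESeq2, 1404 without a low count filter, 287 at the minimum fold, 8110 in replicates 1 to 3 only (1 library of 24 May against 2, so a lone library assumed to vary like the others), 1 to 3671 with each library left out, and 0 of 17627 in replicates 1 to 6 (3239, or 18.4%, at an unadjusted p under 0.05, and 955 by DESeq2). The 2996 of the insulin-stimulated pair became 534 scaled to the hepatocyte list, 1797 at the minimum fold, 7630 in 22 April libraries and 1361 to 5319 with each library left out. The difference in mitochondrial share, 0.908 percentage points, was 0.717 to 1.03 with each library left out, 0.882 without the stromal and contractile lists and 1.23 with mitochondrial ribosomal RNA. The causes were not tested. Over 141 named genes and their alternatives, 2051 of 2242 log2 fold changes kept direction and call, 164 lost the call, 12 gained it and 15 turned sign. Scaled to the hepatocyte list, these turned: SCD -0.0508, INSR -0.225, PCK1 -0.135, ALB -0.0726, POLRMT -0.000316, and the medians of PPAR targets (-0.163), lipid droplet (-0.212), fatty acid synthesis (-0.082), cholesterol synthesis (-0.059), LXR (-0.03), nuclear respiratory chain (-0.277), gluconeogenesis (-0.064), NRF2 (-0.162), inflammation (-0.259), leukocyte (-0.111), cholangiocyte (-0.067) and clock (-0.176) lists. In the fit of all 36 libraries IGF1R (0.036), LEAP2 (0.0439) and the medians of mitochondrial upkeep (0.046) and ribosome biogenesis (0.02) turned. Without a filter IGF1R (0.00232) and LEAP2 (0.00975) turned, and LEAP2 at 1 CPM in 3 libraries (0.00127). With 1 library left out IGF1R ranged from -0.0716 to 0.0789, LEAP2 from -0.0803 to 0.0994 (0.0242 without replicate 4), INSR from -0.068 to 0.119 and G6PC1 from -0.218 to 0.0257. What depth adds to the precision was not tested.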

Other observations

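Further lists were described between the untreated triplets, where 13.4% of all genes were called higher and 17.8% lower in replicates 4 to 6. NRF2 targets, inflammation genes and genes of mitochondrial upkeep lay near those shares. Clock genes had 4 higher and 2 lower of 14 in replicates 4 to 6, hepatokines 5 and 1 of 15, NRF2 targets 3 and 4 of 20, inflammation genes 2 and 5 of 21, MAPK feedback genes 3 and 9 of 20, and genes of mitochondrial upkeep 1 and 2 of 15. Glucocorticoid and cAMP targets had 4 lower and 0 higher of 13 (4 and 0 by DESeq2, 6 and 2 at an unadjusted p under 0.05). Heat shock genes had 5 lower and 0 higher of 15 (5 and 0 by DESeq2, 5 and 1 unadjusted), and ribosome biogenesis genes 2 lower and 0 higher of 23 by edgeR, DESeq2 and unadjusted alike. DBP, a clock-controlled transcription factor, stood at 4.22, 3.88 and 3.92 CPM in replicates 1 to 3 and at 9.81, 8.54 and 8.75 CPM in replicates 4 to 6 (log2 fold change 1.06 ± 0.11), and in the insulin-stimulated pair it was higher in replicates 7 to 9 by 1.17 (log2, past the edgeR threshold). TSC22D3, a glucocorticoid-induced gene, stood at 34.6, 38.9 and 28.7 CPM against 17.1, 15.5 and 12.8 CPM, with replicates 7 to 9 the highest untreated triplet at 64.2 to 66.3 CPM. GDF15, a stress-induced hormone, stood at 100.5, 137.9 and 131.7 CPM against 160.3, 299.2 and 219.6 CPM (0.76 ± 0.23), and its call was lost without replicate 1, 3 or 6. IGFBP2, a binding protein of insulin-like growth factors, stood at 83.7, 93.8 and 90.8 CPM against 56.8, 54.9 and 61.0 CPM (-0.75 ± 0.08). IL6 was lower, at 5.05, 6.07 and 4.29 CPM against 0.411, 0.461 and 0.181 CPM (-3.98 ± 0.27), and stood at 0 in all 6 collagen-free libraries. KRT7, a keratin on the cholangiocyte list, stood at 225.8, 253.8 and 232.0 CPM against 93.8, 73.0 and 64.2 CPM (-1.74 ± 0.12), and at 0.0299 to 0.449 CPM in the collagen-free libraries.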
